A study of Drosophila melanogaster with 35 samples.

Results

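The transcripts of the mitochondrial genome were examined in peak lists of RNA crosslinked to CLAMP. This Drosophila protein has zinc fingers, recognises GA repeats in DNA and helps target dosage compensation to the X chromosome. The assay was iCLIP, in which RNA is fixed to protein by ultraviolet light, precipitated with an antibody to the protein and sequenced, here after cells had been split into fractions. Members were all deposited peaks on the mitochondrial chromosome (chrM), which numbered 74 of 3235 peaks in 5 lists. The lists come from S2 cells, a male embryonic line, and Kc cells, a female embryonic line, both crosslinked with 254 nm ultraviolet light. They cover chromatin of both lines, nucleoplasm of both lines and cytoplasm of Kc cells. An S2 cytoplasm list was not analysed here. In each line and fraction, 4 libraries were precipitated with a CLAMP antibody. No-antibody controls numbered 2 in each line and fraction except Kc chromatin, with 1. No genotype or drug treatment is given, and each line is a single cultured line. The deposited lists hold 1 list for a line and fraction, with no read counts, so depth is unknown, no spread between libraries can be given, and tests compare these lists rather than repeated experiments. Control libraries have no list of their own here, so the peaks were not compared with control peaks. Whether the deposited peaks were called against the controls is not stated. The lists also carry no expression levels against which the lines or the fractions could be checked.

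The fly mitochondrial genome is a small circle that encodes the large and small mitochondrial rRNAs, a set of tRNAs and mRNAs for subunits of the respiratory chain. Both strands are transcribed into long precursors in which tRNAs lie between most of the other genes, and excision of the tRNAs by endonucleases releases the neighbouring rRNAs and mRNAs. The rRNAs form the core of the mitochondrial ribosome, and the AT-rich control region holds the replication origins. The annotation gives 37 mitochondrial RNAs on dm6. Of these, 2 are rRNAs on the minus strand, 22 are tRNAs (14 on the plus and 8 on the minus strand) and 13 are mRNAs (9 plus, 4 minus). The control region is annotated as mt:ori at chrM:14917-19524.

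Mitochondrial peaks were concentrated in rRNAs and tRNAs, and all 71 that fell in an RNA gene at their midpoint were on the coding strand of that gene. The remaining 3 lay in the control region. S2 chromatin had 45 mitochondrial peaks, Kc chromatin 19, Kc nucleoplasm 8 and S2 nucleoplasm 2. Kc cytoplasm had 0 of 8 peaks, which allows a share of up to 37.5%. At least 1 peak was found in 24 of the 37 RNAs in any list, made up of 2 rRNAs, 15 tRNAs and 7 mRNAs. S2 chromatin peaks named 21 of 37 mitochondrial RNAs (56.8%), beside 3.46% of all 18357 annotated genes. Kc chromatin peaks named 10 (27.0%), beside 1.07% of annotated genes. Kc nucleoplasm peaks named 6 (16.2%, beside 0.686%) and S2 nucleoplasm peaks 1 (2.70%, beside 0.305%). In Kc cytoplasm the annotated genes with a peak were 0.0327%. These shares describe the lists, since most annotated genes were not known to be expressed in these cells.

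**Figure D1:**
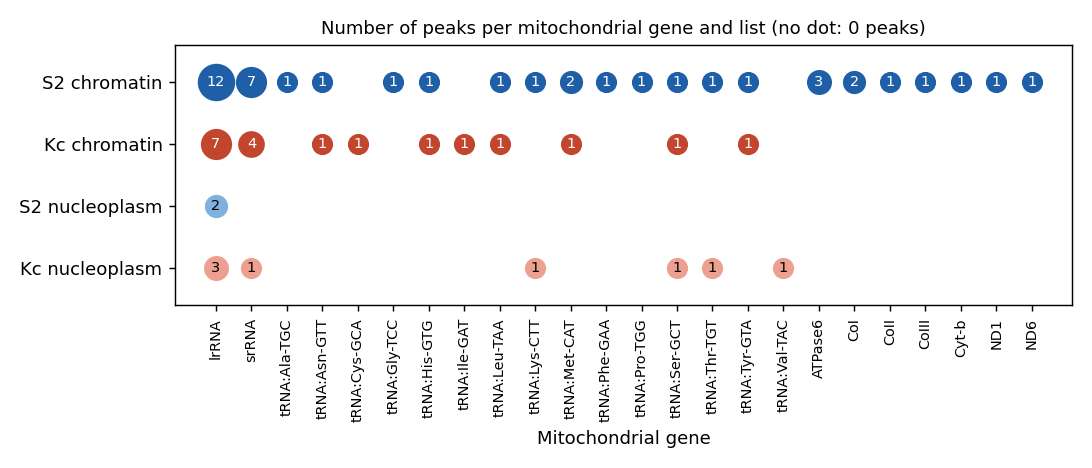
Number of peaks (figure in each dot) in each of the 24 mitochondrial RNAs with a peak, with 1 row for each list and rRNAs, tRNAs and mRNAs from left to right. S2 chromatin fills 21 columns and Kc chromatin 10, and the 7 mRNA columns hold S2 chromatin peaks with 0 in the other lists.

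As a share of all peaks, the mitochondrial genome held 3.18% in S2 chromatin (Wilson 95% interval 2.38 to 4.23%; 45 of 1416) and 0.512% in S2 nucleoplasm (0.140 to 1.85%; 2 of 391). The odds ratio was 5.17 (1.44 to 18.6), with an adjusted Fisher's exact p of 0.0144 over 8 tests. The difference depended on the denominator. Peaks on ribosomal DNA and on all scaffolds outside the main chromosomes were 40.3% of the S2 chromatin and 89.3% of the S2 nucleoplasm list. With those left out, the shares were 5.32% (4.00 to 7.04%) and 4.76% (1.32 to 15.8%), an odds ratio of 0.920 after the continuity correction (adjusted exact p = 1). With peaks within 50 nt merged it was 3.03 (adjusted exact p = 0.547). More mitochondrial RNA in a fraction and more crosslinked RNA per molecule cannot be told apart in such lists.

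The mitochondrial share was 2.17% in Kc chromatin (1.40 to 3.37%; 19 of 874) and 1.47% in Kc nucleoplasm (0.744 to 2.86%; 8 of 546). Their odds ratio was 1.44 (0.641 to 3.26; adjusted exact p = 0.568). Between the lines, the odds ratio of S2 over Kc was 1.46 in chromatin (0.850 to 2.49) and 0.407 in nucleoplasm (0.0987 to 1.68), each with an adjusted exact p of 0.553. The chromatin order turned without ribosomal DNA and scaffolds, to 5.32% in S2 and 7.95% in Kc (5.15 to 12.1%; odds ratio 0.642, adjusted exact p = 1). No difference between the lines was detected in the step from nucleoplasm to chromatin (Zelen's exact p = 0.0911).

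**Figure D2:**
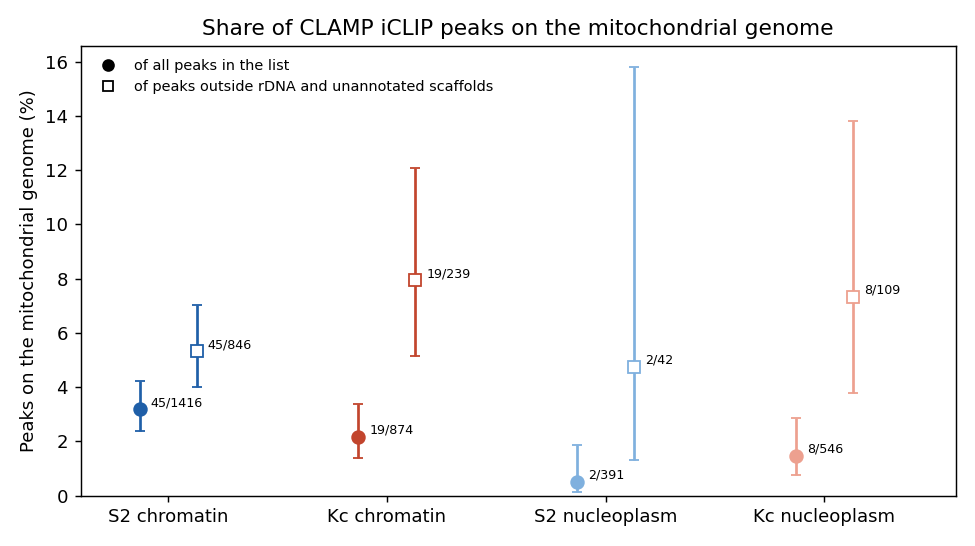
Percentage of peaks on the mitochondrial genome in each of 4 lists. Filled circles give the share of all peaks. Open squares give the share of peaks outside ribosomal DNA and all scaffolds, which the key calls unannotated. Bars are Wilson 95% intervals that cover counting error only, and the numbers give mitochondrial peaks over the denominator. The filled circles run from 0.512% to 3.18% and the open squares from 4.76% to 7.95% with overlapping intervals.

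The minus strand held more peaks than the plus strand, through the rRNAs. Of the 74 peaks, 48 were on the minus strand and 26 on the plus strand, although 23 of the 37 RNAs are on the plus strand. All 36 rRNA peaks were on the minus strand, where both rRNAs are encoded. Outside the rRNAs, 8 of 25 tRNA peaks were on the minus strand, beside 8 of the 22 tRNA genes. Of the mRNA peaks 1 of 10 was, beside 4 of the 13 mRNA genes. The minus-strand share was 60.0% in S2 chromatin (27 of 45) and 73.7% in Kc chromatin (14 of 19). Their odds ratio of 0.564 had an interval of 0.179 to 1.77 (adjusted exact p = 0.568). In Kc nucleoplasm it was 62.5% (5 of 8), and the odds ratio of Kc chromatin over nucleoplasm was 1.68 (0.319 to 8.83; adjusted exact p = 0.752).

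Ribosomal RNAs carried 42.2% of the mitochondrial peaks in S2 chromatin (29.0 to 56.7%; 19 of 45) and 57.9% in Kc chromatin (36.3 to 76.9%; 11 of 19). The odds ratio was 0.544 (0.188 to 1.57; adjusted exact p = 0.568). In Kc nucleoplasm the rRNA share was 50% (4 of 8), with an odds ratio of Kc chromatin over nucleoplasm of 1.35 (0.279 to 6.56; adjusted exact p = 1). Both S2 nucleoplasm peaks were in the large rRNA. Per length, S2 chromatin had 9 peaks per kb of rRNA, 8.90 per kb of tRNA and 0.895 per kb of mRNA. Kc chromatin had 5.21 per kb of rRNA and 5.48 per kb of tRNA, with 0 peaks in the 11.2 kb of mRNA. These densities do not account for the level of each RNA, which the lists do not give.

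The large rRNA, mt:lrRNA (FBgn0013686, chrM:12735-14058, minus strand), is the RNA of the large subunit of the mitochondrial ribosome. It had 12 peaks in S2 chromatin, 7 in Kc chromatin, 3 in Kc nucleoplasm and 2 in S2 nucleoplasm. The peaks covered 40.4% of its 1324 nt in S2 chromatin and 26.5% in Kc chromatin. In Kc nucleoplasm they covered 11.9% and in S2 nucleoplasm 7.18%. Positions from here on are counted from 1 at the 5' end of the RNA.

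A stretch of mt:lrRNA at positions 612 to 745 had peaks in S2 chromatin, Kc chromatin and Kc nucleoplasm. Kc chromatin peaks ran from 612 to 663 and from 690 to 745, and Kc nucleoplasm peaks from 619 to 674 and from 698 to 745. The S2 chromatin peaks there, at 635 to 659 and 697 to 729, were 25 and 33 nt wide and lay within the Kc chromatin peaks. Another site with peaks in those 3 lists lay at 927 to 965 in S2 chromatin (chrM:13094-13132), 938 to 990 in Kc chromatin and 938 to 991 in Kc nucleoplasm. Further toward the 3' end, the S2 chromatin peak at 1014 to 1083 overlapped Kc chromatin peaks at 1000 to 1055 and 1058 to 1096. Nearer the 5' end, S2 chromatin had a peak at 157 to 197 and Kc chromatin one at 151 to 198.

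Other parts of mt:lrRNA differed between the lists. Between positions 441 and 608, S2 chromatin had 3 peaks that overlapped none in another list, at 441 to 504, 527 to 566 and 573 to 608. The same held for its peak at 820 to 842. The S2 chromatin peak at 1271 to 1325 reached 1 nt past the annotated 3' end, and Kc chromatin had none beyond position 1096. At the 5' end the order was the other way. Kc chromatin had a peak at 29 to 75 and S2 nucleoplasm one at 27 to 74, whereas the most 5' peak of S2 chromatin began at 157. The other S2 nucleoplasm peak, at 261 to 307, overlapped the S2 chromatin peaks at 226 to 267 and 286 to 353 by less than 0.5 of the shorter peak's length.

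The small rRNA, mt:srRNA (FBgn0013688, chrM:14131-14916, minus strand), belongs to the small subunit of the mitochondrial ribosome. It had 7 peaks in S2 chromatin, 4 in Kc chromatin, 1 in Kc nucleoplasm and 0 in S2 nucleoplasm. They covered 38.3% of its 786 nt in S2 chromatin, 21.0% in Kc chromatin and 7.76% in Kc nucleoplasm. Each of the 4 Kc chromatin peaks overlapped an S2 chromatin peak. The S2 and Kc chromatin lists both had a peak that ended on the last annotated base, at 743 to 786 in S2 and 757 to 786 in Kc. The peaks at 508 to 560 in S2 and 522 to 560 in Kc also shared their 3' edge. A site near the 5' end had peaks in S2 chromatin at 146 to 181 and 182 to 233, which abut, in Kc chromatin at 156 to 199 and in Kc nucleoplasm at 146 to 206. S2 chromatin peaks at 32 to 78 and 602 to 649 overlapped none in the other lists.

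**Figure D3:**
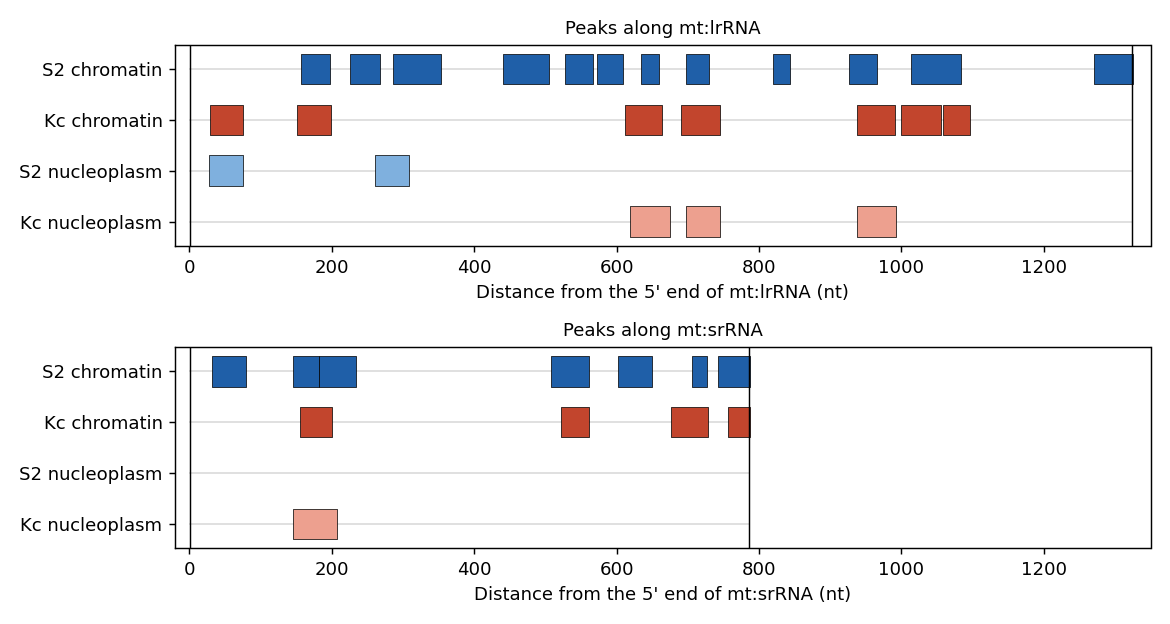
Peaks along mt:lrRNA (top) and mt:srRNA (bottom), drawn to scale by distance in nt from the 5' end of the RNA, with 1 row for each list and black lines at the annotated ends. The sites near 612 to 745 and 938 to 990 of mt:lrRNA hold peaks of 3 lists, and both chromatin lists have a peak at the 3' end of mt:srRNA.

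Mitochondrial tRNAs, the adaptors of mitochondrial translation and the cutting points of the precursors, had 13 peaks in 12 genes in S2 chromatin and 8 peaks in 8 genes in Kc chromatin. Kc nucleoplasm had 4 peaks in 4 tRNA genes and S2 nucleoplasm 0. Of the 15 tRNA genes with a peak, 6 were in both chromatin lists: Met-CAT, Tyr-GTA, Leu-TAA, Asn-GTT, Ser-GCT and His-GTG. The Met-CAT peaks of S2 chromatin were 21 and 28 nt wide, so Met-CAT leaves that list at a minimum width of 30 nt. The tRNA for Ser-GCT (chrM:6191-6258) was the only tRNA with a peak in 3 lists. S2 chromatin peaks in Ala-TGC, Gly-TCC, Phe-GAA and Pro-TGG had no counterpart in another list. The same held for Kc chromatin peaks in Cys-GCA and Ile-GAT and for the Kc nucleoplasm peak in Val-TAC. No peak was found in the tRNAs Arg-TCG, Asp-GTC, Gln-TTG, Glu-TTC, Leu-TAG, Ser-TGA and Trp-TCA.

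Most tRNA peaks ended at the 3' end of the tRNA. The 3' edge lay within 3 nt of the last annotated base in 20 of 25 tRNA peaks and on that base in 16. Within 3 nt, this was so for 8 of the 13 S2 chromatin peaks, all 8 Kc chromatin peaks and all 4 Kc nucleoplasm peaks. The measure was chosen after the peaks were seen, so it is a description with no test. In Ser-GCT the peaks covered positions 13 to 68 in S2 chromatin, 29 to 68 in Kc chromatin and 25 to 68 in Kc nucleoplasm of a 68 nt RNA. In His-GTG they covered 32 to 66 in S2 chromatin and 31 to 66 in Kc chromatin of a 66 nt RNA. In Leu-TAA they covered 29 to 66 and 31 to 66, again up to the last base. In these tRNAs the lists with a peak had the same 3' edge. Their 5' edges differed by 1 nt in His-GTG, by 2 nt in Leu-TAA and by 4 to 16 nt in Ser-GCT.

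The 5' edges did not lie at the tRNA's first base in any peak: 0 of 25 were within 3 nt of it, and they ran from position 10 to 43. Of the 25, 13 began between positions 25 and 36, and 5 began at position 10. The peaks that began at position 10 were in Met-CAT, Asn-GTT, Phe-GAA and Pro-TGG in S2 chromatin and in Cys-GCA in Kc chromatin. The 5 peaks that ended short of the tRNA's 3' end, by 6 to 39 nt, were all in S2 chromatin. They were in Met-CAT (positions 10 to 30), Phe-GAA (10 to 31), Pro-TGG (10 to 49), Gly-TCC (12 to 50) and Ala-TGC (29 to 59). Met-CAT also had an S2 chromatin peak at 42 to 69, so its 2 peaks lay on either side of a gap. In 4 of the 25 peaks the 3' edge ran 1 to 3 nt past the last base, most in Thr-TGT in Kc nucleoplasm. Nuclear tRNA genes gave 158 of 164 peaks with the 3' edge within 3 nt of the tRNA's last base and 1 of 164 with the 5' edge within 3 nt of its first, by the same measure.

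**Figure D4:**
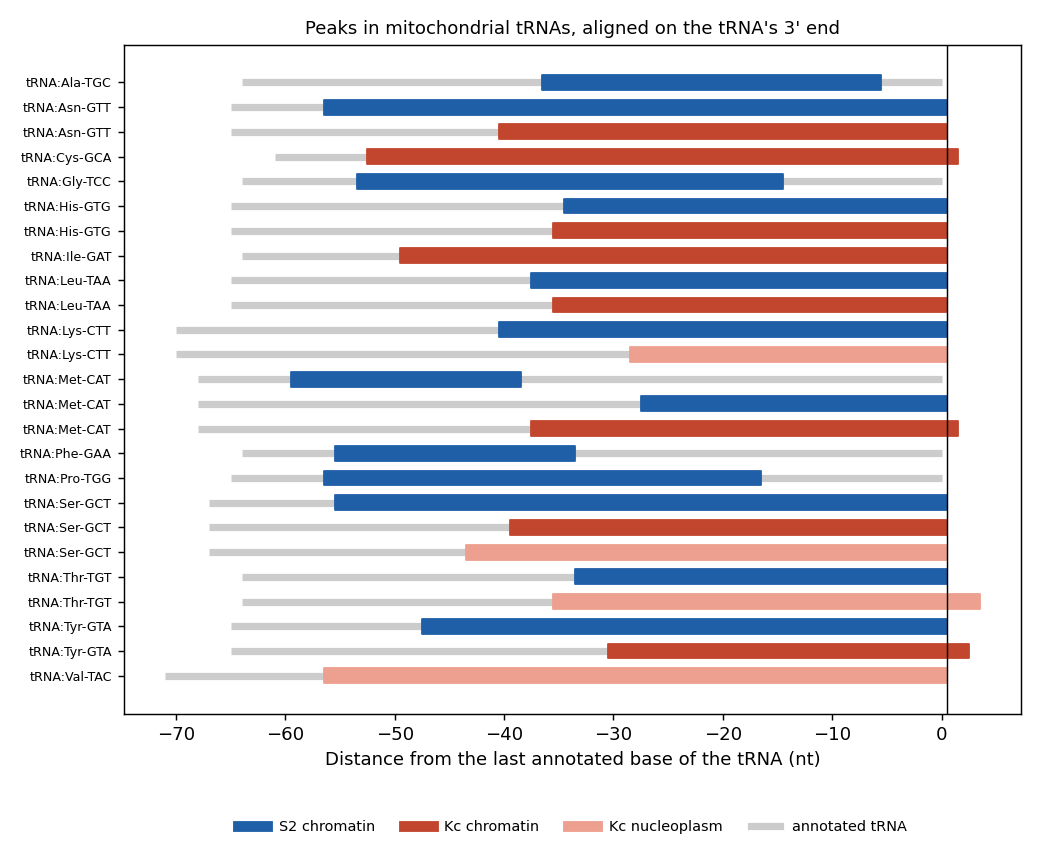
Each of the 25 tRNA peaks (coloured bars, by list) over the annotated tRNA (grey), aligned on the tRNA's last base at 0, with distance in nt. In 20 of the 25 the bar ends within 3 nt of the line, and in 5 S2 chromatin peaks it ends 6 to 39 nt short of it.

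Mitochondrial mRNAs had 10 peaks in 7 of the 13 genes, all in S2 chromatin, where 3.46% of all annotated genes had a peak. Kc chromatin had 0 of 19 mitochondrial peaks in an mRNA, which allows a share of up to 15.8%, and Kc nucleoplasm 0 of 8, which allows up to 37.5%. The S2 chromatin share was 22.2% (Wilson 95% interval 12.5 to 36.3%; 10 of 45), so the Kc chromatin limit of 15.8% lies inside its interval. The difference between the lines was not tested. All 3 cytochrome c oxidase genes (complex IV) had a peak. They were mt:CoI with 2, at chrM:2246-2275 and chrM:2300-2327, mt:CoII with 1 at chrM:3590-3623 and mt:CoIII with 1 at chrM:5018-5055. Of the ATP synthase genes, mt:ATPase6 had 3 peaks, at chrM:4242-4283, chrM:4555-4617 and chrM:4634-4657, and mt:ATPase8 had 0. The cytochrome b gene mt:Cyt-b (complex III) had 1 peak at chrM:11237-11269. Of 7 NADH dehydrogenase genes (complex I), mt:ND1 had 1 peak, at chrM:12005-12034 on the minus strand, and mt:ND6 had 1, at chrM:10178-10200. The other 5, mt:ND2, mt:ND3, mt:ND4, mt:ND4L and mt:ND5, had 0. Counts by complex are small, and differences between the complexes were not tested.

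The mRNA peaks were narrow and lay inside the genes. Their median width was 31.5 nt, beside 42.0 nt for rRNA and 38.0 nt for tRNA peaks of the same list. They lay at least 180 nt from the first and at least 79 nt from the last base of the gene, and 0 of 10 had an edge within 3 nt of either. The peaks covered 19.1% of mt:ATPase6 and between 2.90% and 4.96% of each of the other 6 genes. None of the 10 overlapped a peak of another list.

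**Figure D5:**
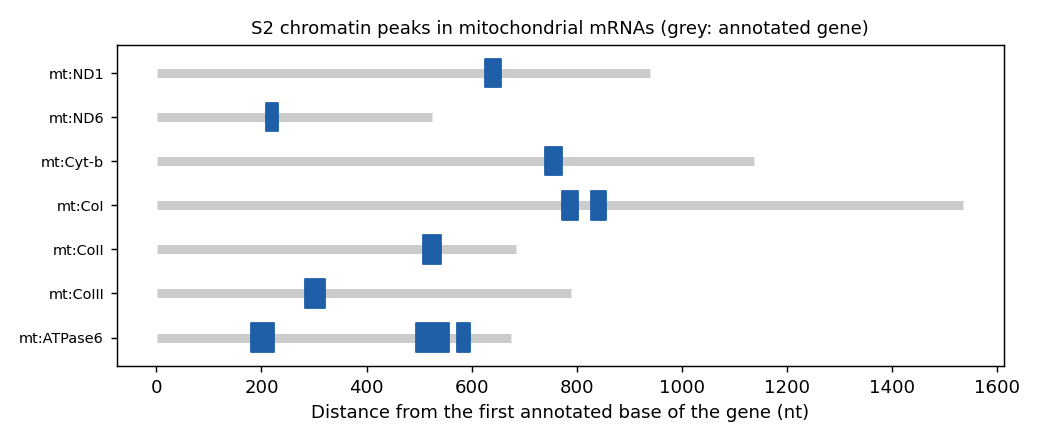
Positions of the 10 S2 chromatin peaks (blue) along the 7 mitochondrial mRNA genes with a peak (grey), in nt from the first annotated base. The peaks lie inside the genes, and mt:ATPase6 holds 3 of them.

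The 3 peaks outside RNA genes were S2 chromatin peaks on the minus strand of the control region, at chrM:18796-18832, chrM:18837-18862 and chrM:19259-19295. They lay 3880, 3921 and 4343 nt upstream of the 5' end of mt:srRNA on the strand that encodes it. Widths were 37, 26 and 37 nt. Whether the sequences of these peaks recur within the control region was not checked, because no genome sequence was used here. The other 4 lists had 0 peaks in the control region.

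Some sites had peaks in more than 1 list, all of them in rRNAs and tRNAs. Overlapping peaks on a strand joined into 47 sites, of which 28 had peaks in 1 list, 14 in 2 and 5 in 3. Sites with 1 list made up 7 of 18 in rRNAs, 8 of 16 in tRNAs and 10 of 10 in mRNAs. Of the 5 sites with peaks in 3 lists, 4 were in rRNAs and 1 was the Ser-GCT tRNA. In chromatin, 16 of 19 Kc peaks (84.2%) overlapped an S2 peak by at least 1 base, and 16 of 45 S2 peaks (35.6%) overlapped a Kc peak. Of the 8 Kc nucleoplasm peaks, 7 (87.5%) overlapped an S2 chromatin peak and 5 (62.5%) a Kc chromatin peak. Of the 2 S2 nucleoplasm peaks, 1 (50%) overlapped an S2 chromatin peak. On the nuclear chromosomes outside ribosomal DNA, 21.4% of Kc chromatin peaks (47 of 220) overlapped an S2 chromatin peak, and 5.87% of S2 chromatin peaks (47 of 801) a Kc chromatin peak. There, 19.8% of Kc nucleoplasm peaks (20 of 101) overlapped an S2 chromatin peak and 13.9% (14 of 101) a Kc chromatin peak. For S2 nucleoplasm the nuclear share that overlapped S2 chromatin was 62.5% (25 of 40), above the mitochondrial 1 of 2. S2 chromatin peaks covered 39.6% of mitochondrial rRNA bases and 33.6% of tRNA bases. A peak placed anywhere in these RNAs would therefore often overlap one by at least 1 base. The share of overlaps expected in this way was not computed, and the difference from the nuclear chromosomes was not tested.

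Over all overlapping S2 and Kc chromatin peaks the 3' edges lay closer together than the 5' edges, mainly through peaks that ended at an RNA's 3' end. Over 17 overlapping pairs the median distance was 2 nt between 3' edges and 14.0 nt between 5' edges. The 3' edges were identical in 6 pairs and the 5' edges in 0. Within 3 nt these were 10 and 2 pairs. The pairs in tRNAs and at the 3' end of mt:srRNA ended within 3 nt of the RNA's last base in both lists. They gave every identical 3' edge except that of the mt:srRNA peaks at 508 to 560 and 522 to 560. Away from RNA ends the order varied. The mt:lrRNA peaks at 157 to 197 and 151 to 198 lay closer at the 3' edge. Those at 927 to 965 and 938 to 990 lay closer at the 5' edge. Over 5 pairs of Kc chromatin and Kc nucleoplasm peaks the medians were 1 nt between 3' edges and 7 nt between 5' edges. The 1 pair of Kc chromatin and S2 nucleoplasm peaks differed by 1 nt at the 3' and 2 nt at the 5' edge. The order was the opposite in 2 other pairs of lists. Over 8 pairs of S2 chromatin and Kc nucleoplasm peaks the medians were 15.5 nt between 3' edges and 11.5 nt between 5' edges, with 3 pairs within 3 nt at either edge. Over 2 pairs of S2 chromatin and S2 nucleoplasm peaks they were 43 and 30 nt.

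Median peak widths were 38.0 nt on the mitochondrial genome and 39.0 nt elsewhere in S2 chromatin, and 44.0 and 58.0 nt in Kc chromatin. In Kc nucleoplasm they were 51.0 and 59.0 nt, and in S2 nucleoplasm 47.5 and 52.0 nt. The medians were thus lower on the mitochondrial genome in all 4 lists with mitochondrial peaks, which was not tested. The S2 nucleoplasm median rests on 2 peaks. Peaks on ribosomal DNA and scaffolds were 72.7% of the Kc chromatin, 80.0% of the Kc nucleoplasm and 89.3% of the S2 nucleoplasm list. In those lists the peaks elsewhere are thus mostly of that kind. Of the 45 S2 chromatin peaks 10 were under 30 nt (22.2%, beside 26.3% of the other peaks), of the 19 Kc chromatin peaks 0 (beside 4.21%). Leaving out the narrow peaks reduced the S2 chromatin RNAs with a peak from 21 to 18, without the tRNAs Met-CAT and Phe-GAA and mt:ND6.

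Nuclear genes that serve the mitochondrion were counted in the same way. Of 84 nuclear genes of the respiratory chain, 3 (3.57%) had an exonic peak in S2 chromatin, near the 3.46% of all annotated genes with a peak in that list. They were ND-SGDH (3L 12138211 to 12138245), COX7A (3R 8340703 to 8340743) and COX7C. In Kc chromatin 1 of the 84 (1.19%, beside 1.07% of all genes) had a peak, ND-MLRQ (3L 23341561 to 23341601). Of 73 genes of mitochondrial ribosomal proteins, 0 had a peak in each of the 5 lists, beside 3.46% of all genes in S2 chromatin and 1.07% in Kc chromatin. Counts this small do not set these lists apart from all genes. Of 15 genes of mitochondrial RNA synthesis and turnover, TFAM, which packages mitochondrial DNA and takes part in its transcription, had 1 exonic peak in S2 chromatin (3R 20576497 to 20576556), and the other 14 had 0 in each list.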

How the data were processed

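Peak lists from CLAMP iCLIP were used as the authors deposited them. Per the labels' protocols, libraries carried barcodes of 4 nt, were amplified over 31 PCR cycles and were processed, with peak calling, by the Galaxy CLIP-Explorer methods. The submitters' processing notes name the build dm6 and the tools STAR 2.5.2b-2, cutadapt 3.5, UMI-tools and FastQC. Neither the peak caller and its threshold nor the libraries behind each list are stated there. The deposited score was 0 in every peak and ranked nothing. The labels of 4 CLAMP libraries name each list (3 in Kc nucleoplasm), as do those of 1 or 2 no-antibody libraries.

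Coordinates are 1-based, set on Ensembl release 115 (dm6 coordinates) with scipy 1.17.1 and numpy 2.4.6 under Python 3.11.15, and plotted with matplotlib 3.10.9. The annotated end of the control region, 19524, bounds every mitochondrial peak. A peak was given to the gene at its midpoint on its strand, exons before introns, then small non-coding RNAs under 500 nt, then the most overlap. The scaffold with ribosomal DNA units was matched to the annotation by inference, and the X block ran from 23200802 to 23538283. Two-sided Fisher's exact tests compared shares, with p-values adjusted over 8 tests by the Benjamini-Hochberg method, omitting strand and rRNA shares where a list had under 5 mitochondrial peaks. Odds ratios had 0.5 added to each cell and Woolf 95% intervals. The threshold was an adjusted p of 0.05, and the limit of a 0 was 3 counts. Intervals, limits and tests treat peaks as independent and cover counting error only. The statistics were tested on simulated data. The members and gene lists were chosen with earlier results of these data known. Every mitochondrial gene with a peak could be named, and nuclear genes were named if they had a peak. Planned base content and motif counts were not made and no sequence is shown, because no genome sequence was used here. For the same reason, nuclear copies of mitochondrial sequence, to which reads could also map, were not searched for.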

Additional observations from a re-analysis of the deposited data

How the results depend on the processing

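Over 50 alternative values, 45 kept their direction and their side of the threshold or stayed within 1.5 times. The denominator mattered most. Without ribosomal DNA and scaffolds, 3 ratios moved across 1. The odds ratio of the mitochondrial share was 0.920 for S2 chromatin over S2 nucleoplasm (5.17 with all peaks). It was 0.642 for S2 over Kc chromatin (1.46 with all peaks). The ratio of the steps of the lines was 0.871 (3.58 with all peaks; Zelen's exact p = 1). The raw shares in S2, 5.32% in chromatin and 4.76% in nucleoplasm, kept their order, and the ratio turned through the continuity correction. Fewer peaks remained in the denominator by construction. With peaks within 50 nt merged, the S2 chromatin over nucleoplasm odds ratio of 3.03 no longer passed (adjusted exact p = 0.547); merging joins neighbouring rRNA peaks. S2 chromatin peaks that overlap S2 nucleoplasm peaks fell from 2 to 0 when at least 0.5 of the shorter peak had to overlap. Counting tRNA peaks that end on the last base itself, an alternative chosen after seeing the data, gave 16 in place of 20. No paired analysis was possible because each line and fraction has 1 peak list, and no replicate could be left out for the same reason. Depth is unknown, so absence of a peak, above all in the lists with 2 and 8 mitochondrial peaks, may not mean absence of RNA.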
